A study of Mus musculus with 107 samples.

Results

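The proteoglycans and tenascins that build the extracellular matrix of the brain and spinal cord were followed here as 10 genes: the lecticans Acan, Bcan, Ncan and Vcan, the link proteins Hapln1 and Hapln4, the transmembrane proteoglycans Cspg5 and Ptprz1, and the tenascins Tnc and Tnr. The genes were chosen by name for their role in this matrix, and all 10 were found among the 27179 genes of the count tables. The study asked how neural progenitor cells (NPC) derived from mouse embryonic stem cells (ESC) differentiate in culture and after grafting into the spinal cord, and how the grafted cells compare with host astrocytes. It measured RiboTag RNA-Seq libraries in 23 groups. RiboTag cells carry a haemagglutinin tag on a ribosomal protein. The tagged ribosomes were pulled down to enrich for RNA on the ribosomes of the tagged cells. All libraries were labelled C57BL/6 and RiboTag +, and every cultured or grafted cell came from a single female ESC line, so that the cultures represent 1 line.

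ESC (n = 4) were compared with NPC held in EGF and FGF at 100 ng/ml, at passages 5, 15 and 30 after neural induction (NPC P5, P15 and P30, n = 4 each). At passage 15 there were also other derivations (NPC P15 D2, n = 6, and NPC P15 D3, n = 4). Differentiation was started by lowering EGF and FGF to 1 ng/ml for 4 days (SPONT, n = 4). The other differentiation groups had the same low growth factors plus ciliary neurotrophic factor (CNTF) at 100 ng/ml, IGF-1 at 100 ng/ml, fetal bovine serum (FBS) at 1, 5, 10 or 20%, or CNTF with 5% FBS (n = 4 each). NPC were also passed through a pipette in media (NPC media), in DCH, a synthetic polypeptide hydrogel carrier (NPC DCH), or in DCH after 4 hours of retention in it (NPC DCH 4h, n = 5 each). Host astrocytes came from the spinal cord of mice of the 73.12 Gfap-Cre RiboTag line, healthy (Host healthy, n = 9) or 14 days after a crush spinal cord injury (Host SCI, n = 5), and carried the tag in any cell in which the Gfap promoter had driven Cre. NPC grafts were recovered at 14 days from SCI lesions, from uninjured spinal cord or from double crush SCI (dSCI) lesions, and at 5 days from SCI lesions (n = 5 each). Lesions were grafted 2 days after injury. The animals were adult mice of both sexes, aged 8 weeks to 4 months at surgery, and the methods give separate mice for the graft replicates. Nothing in the labels says that the replicates of a culture group came from separate derivations, so that p-values there measure only the spread between these libraries.

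Lecticans are chondroitin sulfate proteoglycans that bind hyaluronan at one end and tenascins at the other, and link proteins hold the lectican to the hyaluronan. The resulting lattice fills the spaces between brain cells, and in its dense form it makes the perineuronal nets around neurons. After injury of the central nervous system glia lay down more of several chondroitin sulfate proteoglycans, which in culture limit the growth of axons. Tenascin-C is typical of germinal zones, immature glia and wounds, whereas tenascin-R is typical of oligodendrocyte lineage cells and some neurons of the mature tissue.

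In the genome (GRCm38.p6) Acan lies at chr7:79053226-79115099, Bcan at chr3:87987531-88002175, Ncan at chr8:70093085-70120863 and Vcan at chr13:89655309-89743027. Of the link protein genes, Hapln1 lies at chr13:89540529-89611832 and Hapln4 at chr8:70083529-70090862. Cspg5 lies at chr9:110243783-110262576 and Ptprz1 at chr6:22875315-23052916. Tnc lies at chr4:63959785-64047015 and Tnr at chr1:159523729-159931729. All 10 are protein-coding genes. Reads on Vcan and Tnc could also stem from an overlapping long non-coding RNA, Gm4117 and 8030451A03Rik, which reached at most 258 and 61 counts in any library. Long non-coding RNAs also overlap Acan (Gm26633), Ptprz1 (Gm30493 and Gm46954) and Tnr (Gm31348), and the count tables hold no rows for them. These overlaps are of whole genes from start to end, and exons were not compared. Whether reads from any of these RNAs were counted on a member is therefore not known.

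The bases before the start site of Tnc, which fell on withdrawal of growth factors and rose in serum, are shown with those of Ncan, which moved the opposite way in serum, and of Acan, whose mean in each graft group stood above its mean in every culture of NPC or differentiated NPC. Each window holds the 250 bases before the start site in RefSeq (GRCm38.p6), 5′ to 3′ on the strand of the gene, with capitals where a searched motif matched on either strand. The windows are chr4:64047016-64047265 (minus strand), chr8:70120845-70121094 (minus strand) and chr7:79052976-79053225 (plus strand).
Tnc: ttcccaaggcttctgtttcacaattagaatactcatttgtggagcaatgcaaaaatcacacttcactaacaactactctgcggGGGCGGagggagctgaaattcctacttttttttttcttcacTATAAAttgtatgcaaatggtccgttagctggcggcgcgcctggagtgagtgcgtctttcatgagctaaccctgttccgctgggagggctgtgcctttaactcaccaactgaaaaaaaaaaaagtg
Ncan: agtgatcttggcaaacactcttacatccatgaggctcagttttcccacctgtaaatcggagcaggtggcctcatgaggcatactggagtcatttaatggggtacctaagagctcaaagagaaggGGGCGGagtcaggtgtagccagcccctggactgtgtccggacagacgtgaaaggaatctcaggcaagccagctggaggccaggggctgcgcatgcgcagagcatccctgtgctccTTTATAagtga
Acan: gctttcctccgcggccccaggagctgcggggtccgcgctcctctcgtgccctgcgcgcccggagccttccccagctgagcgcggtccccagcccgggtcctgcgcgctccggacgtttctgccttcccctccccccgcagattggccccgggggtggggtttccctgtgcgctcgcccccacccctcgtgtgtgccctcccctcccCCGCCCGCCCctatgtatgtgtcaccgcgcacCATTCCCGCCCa
The motifs searched were the GC box with the letters GGGCGG, the TATA motif with the letters TATANA, the TEAD motif with the letters GGAATG, the AP-1 motif with the letters TGANTCA, the STAT motif with the letters TTCNNNGAA, the SMAD motif with the letters CAGACA, the SOX motif with the letters ACAATG, and the CArG box by name. Counting the base before the start site as −1, the Tnc window held a GC box match beginning at −167 and a TATA match at −126. A second start site of Tnc in RefSeq has the window chr4:64046937-64047186, which overlaps the one shown and held TATA matches at −205 and −29, a GC box match at −246 and a SMAD match at −71, counted from that site. The Ncan window held a GC box match at −126 and a TATA match at −11. It reaches into the Ncan gene as annotated above, and the TATA match lies inside the gene. The Acan window held GC box matches at −44, −40 and −7, and a TEAD match at −12 that overlaps the last of them. Of 32851 windows of the same length, 32.7% held a GC box match, 22.6% TATA, 12.6% TEAD, 6.75% AP-1, 7.02% STAT, 17.1% SMAD, 10.7% SOX and 1.47% CArG. These matches describe letters and were not tied to any measurement here.

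Across the series 96 libraries held 30473157 to 147764968 counts, with a median of 73089588. The other 11, all of NPC P15 D2 and of the grafts at 5 days, held 12286240 to 18085106 counts, and their depth cannot be told apart from their group. The headers of the 96 count tables name 2 inputs to the alignment and those of the 11 name 1. Even values made up 53.1% to 73.8% of the counts from 1 to 20 in the 96 and 43.1% to 48.5% in the 11. Whether both mates of a pair were counted in the 96 was not tested, so that their totals may exceed the number of fragments. The labelled cell types were checked against marker lists. ESC held 1373 to 1426 CPM (counts scaled to library size) summed over 3 pluripotency markers, against at most 3.49 CPM in any other library. Summed over 5 astrocyte markers, host astrocytes held 23548 to 38769 CPM, SPONT 6518 to 10191 CPM and NPC P15 56.6 to 72.9 CPM. Host libraries also held 5192 to 11264 CPM over 5 mature oligodendrocyte markers in healthy cord and 21452 to 36410 CPM after SCI. Differences between groups were tested with the edgeR quasi-likelihood test over all expressed genes with Benjamini-Hochberg adjustment, and a gene was called at an adjusted p under 0.01. A log2FC is given with its standard error (SE).

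**Figure D1:**
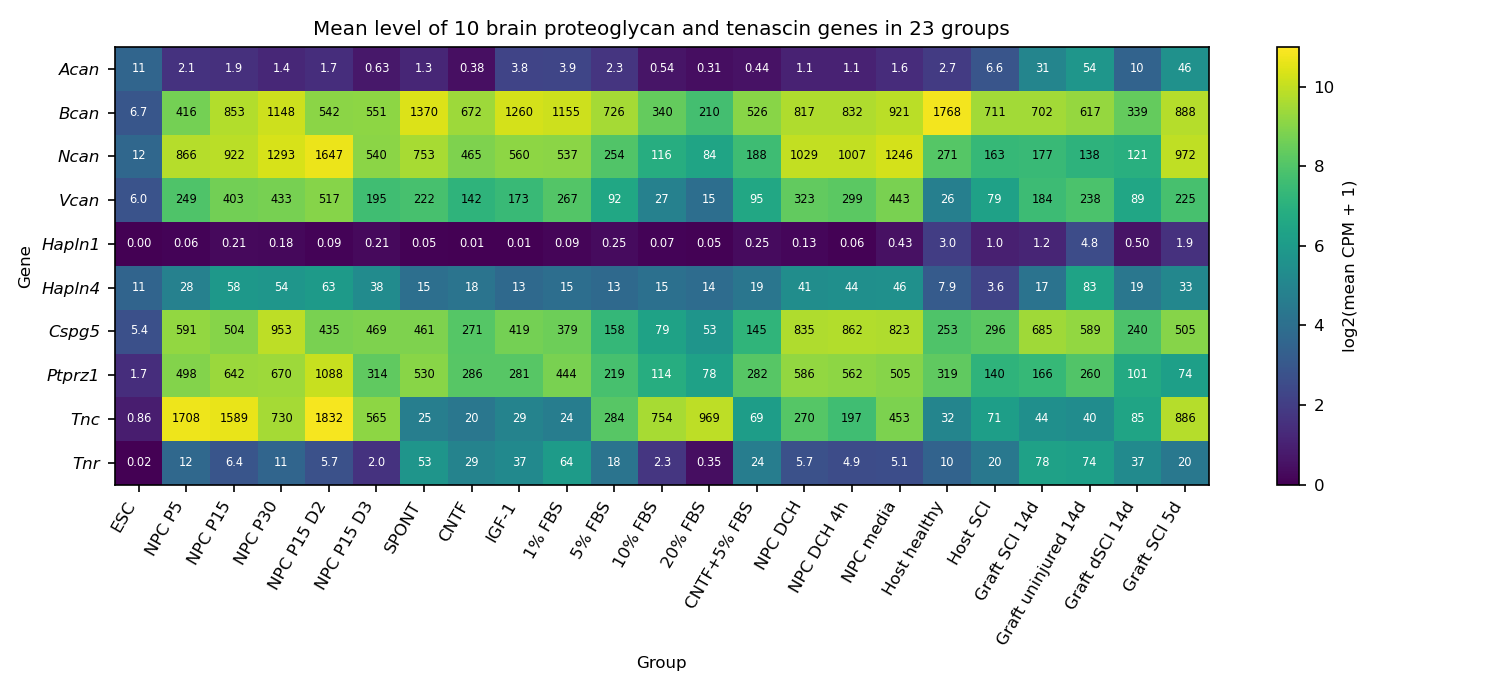
Mean level of each of the 10 genes (CPM) in the 23 groups. Bcan is highest in healthy host astrocytes at a mean of 1768 CPM, Tnc is high in NPC and in 20% FBS (1589 CPM in NPC P15 and 969 CPM in 20% FBS) and low in SPONT (25.3 CPM), and Hapln1 stays at or below a mean of 4.83 CPM in every group.

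The 10 genes spanned a wide range of levels. Bcan, the smallest lectican of the central nervous system, had its highest mean in healthy host astrocytes, at 1768 ± 185 CPM (SD, n = 9), followed by SPONT at 1370 ± 111 CPM (SD, n = 4). These ranges did not overlap, at 1521 to 2010 CPM and 1228 to 1500 CPM. Ncan and Vcan, the lecticans of the developing nervous system, and Ptprz1, a receptor-type phosphatase, and Tnc had their highest means in NPC P15 D2, at 1647, 517, 1088 and 1832 CPM. That group is among those of low depth, which cannot be told apart from the group. Cspg5, a transmembrane proteoglycan with an EGF-like domain, was highest in NPC P30 at 953 ± 29.2 CPM (SD, n = 4). Acan, the lectican best known from cartilage and perineuronal nets, and Hapln4, a brain link protein, had their highest means in the grafts into uninjured cord, at 54.3 ± 25.7 CPM and 82.8 ± 63.8 CPM (SD, n = 5). Tnr had its highest means in the grafts in SCI lesions at 14 days (78.5 ± 34.1 CPM, SD, n = 5) and in uninjured cord (74 ± 31.9 CPM, SD, n = 5), which overlapped each other and the 1% FBS group next in order (64 ± 14.7 CPM, SD, n = 4). Hapln1, the link protein shared with cartilage, reached at most 8.88 CPM in any library.

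Set against gene length, as CPM per kilobase of exon (FPKM), the 10 genes together held 681 ± 23.5 FPKM in NPC P15 (SD, n = 4), 552 FPKM in SPONT and 530 FPKM in healthy host astrocytes, but 8.68 FPKM in ESC. The share of each gene in that sum shifted between states. Bcan made up 82.1% of it in healthy host astrocytes (SD 1.17), 68.4% in host astrocytes after SCI and 61.2% in SPONT. In NPC P5 the leading gene was Tnc with 39.1%, and Bcan held 18.2%. Tnc held 0.589% of the sum in SPONT and 61.1% in 20% FBS (SD 2.19). In the grafts at 14 days Bcan again led with 50.0% to 55.0%, followed by Cspg5, which held 21.7% in SCI lesions.

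**Figure D2:**
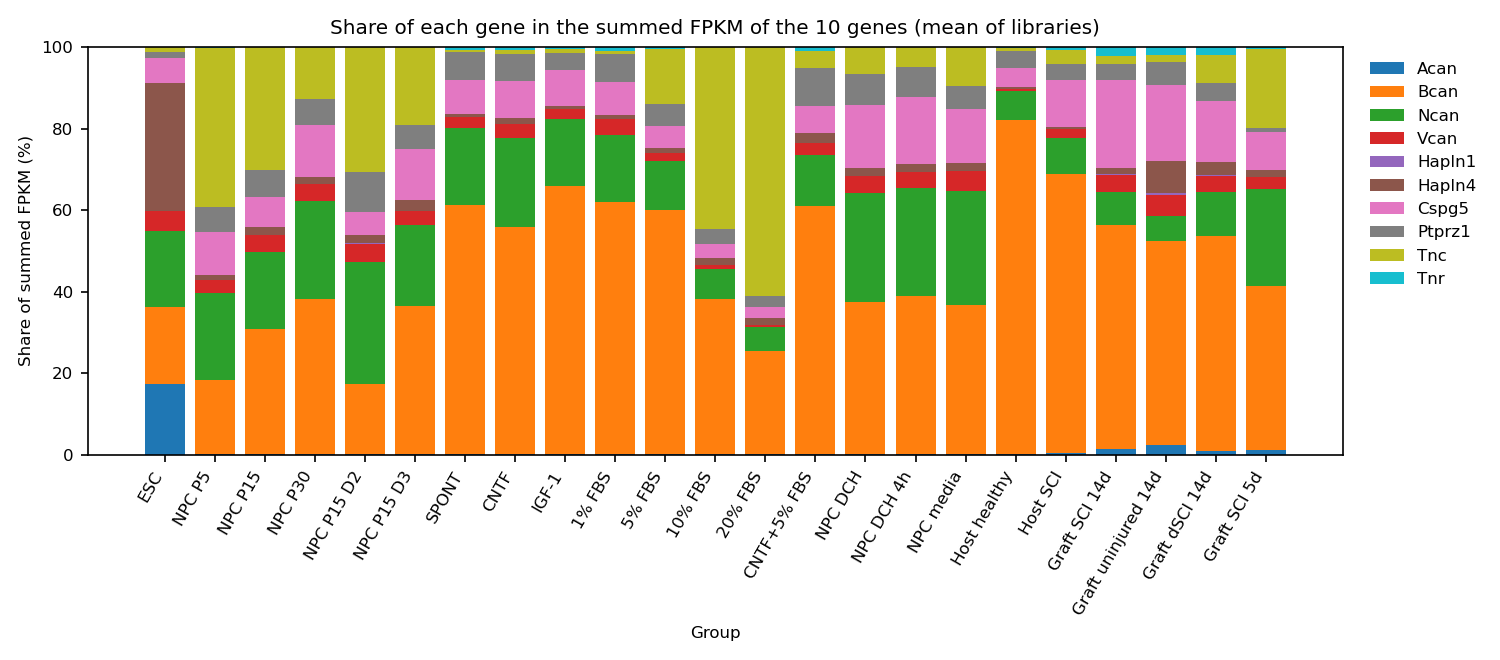
Share of each gene in the summed FPKM of the 10 genes (%), as stacked bars of the group means. Bcan fills 82.1% of the bar of healthy host astrocytes, whereas Tnc fills 39.1% in NPC P5, 0.589% in SPONT and 61.1% in 20% FBS.

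From ESC to NPC P15 8 of the 10 genes rose, most of them from trace levels. Tnc stood at 0.823, 0.986, 1.1 and 0.525 CPM in the ESC libraries and at 1621, 1542, 1524 and 1669 CPM in NPC P15, a log2FC of 10.79 (SE 0.14, adjusted p = 3.2e-13). Every NPC library stood far above every ESC library. Bcan rose by a log2FC of 6.92 (SE 0.10), from a mean of 6.68 to 853 CPM. Ncan rose by 6.22 (SE 0.10), Vcan by 5.99 (SE 0.18), Cspg5 by 6.45 (SE 0.16) and Ptprz1 by 8.47 (SE 0.38), and Hapln4 rose by 2.33 (SE 0.14). Tnr was at or under 3 counts in 3 of the 4 ESC libraries, so that no fold is given, and stood at 5.6 to 7.52 CPM in NPC P15. Acan moved the other way. It stood at 9.44, 11.7, 14.4 and 9.19 CPM in ESC and at 1.99, 2.43, 1.63 and 1.48 CPM in NPC P15, a log2FC of −2.65 (SE 0.27, adjusted p = 3.8e-06), and the groups did not overlap. Hapln1 had no counts in any ESC library and was too low to test. The comparison called 67.2% of all genes, and 32.2% as higher, so that 9 called of 9 tested is read against a large background. The median log2FC was 6.45 over the 9 genes and −0.10 over all genes. Fewer cells of a type and less RNA per cell cannot be told apart in these bulk libraries, here or below.

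Most of the enzymes that build chondroitin sulfate on these core proteins rose over the same step. Of 21 tested, 14 rose from ESC to NPC P15 and 1 fell, with a median log2FC of 1.65. For these lists too, 67.2% of all genes were called and 32.2% called higher. Chst7, a 6-O-sulfotransferase, rose by 8.20 (SE 0.11) and Xylt1, which primes the core protein, by 5.86 (SE 0.29), whereas Dse, which turns the chain into dermatan sulfate, fell by 2.77 on the log2 scale (SE 0.09). Of 15 receptors and ligands of these molecules 9 rose and 4 fell. Ptn, the pleiotrophin that binds Ptprz1, rose by 9.07 (SE 0.13), and its relative Mdk had a log2FC of −10.62 (SE 0.17). Of 10 proteases and inhibitors that act on lecticans 6 rose, among them Mmp2 (5.54, SE 0.11) and Adamts1 (4.72, SE 0.25), and 1 fell. Of 8 hyaluronan genes tested 3 rose, led by the receptor Cd44 (6.92, SE 0.35), and 2 fell. Of 9 other proteoglycans and tenascins tested 4 rose, led by Cspg4, the NG2 proteoglycan (7.11, SE 0.48), and 3 fell.

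With continued passage Bcan gained and Tnc lost. Bcan had a mean of 416 ± 12.3 CPM in NPC P5 and of 1148 ± 37.7 CPM in NPC P30 (SD, n = 4 each), a log2FC of 1.44 (SE 0.03, adjusted p = 1.5e-17). Tnc held 1601, 1726, 1749 and 1754 CPM in NPC P5 and 784, 669, 702 and 765 CPM in NPC P30, a log2FC of −1.25 (SE 0.04, adjusted p = 6.8e-15). Neither gene overlapped between the passages. Ncan, Vcan, Hapln4, Cspg5 and Ptprz1 rose by 0.41 to 0.93. The comparison called 35.5% of all genes. Between derivations at passage 15 the genes differed as well. In D3 8 of the genes stood lower than in NPC P15, whose labels name no derivation. In that comparison 48% of all genes were called and 24.5% were called lower. Among the 8, Tnc stood at 565 ± 155 CPM (SD, n = 4, log2FC −1.45, SE 0.15) and Vcan at 195 ± 16.1 CPM (SD, n = 4, −1.001, SE 0.09). The call of Acan among them was lost without D3 library 1, 2 or 3 (adjusted p up to 0.0182). In D2 Ncan (0.84, SE 0.05), Ptprz1 (0.76, SE 0.06) and Vcan (0.36, SE 0.07) stood higher and Bcan (−0.65, SE 0.03) and Cspg5 (−0.21, SE 0.04) lower, where 55.9% of all genes were called. The D2 libraries were shallow ones, so that derivation and depth cannot be told apart.

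On withdrawal of growth factors Tnc fell to a mean of 25.3 CPM while Tnr rose. Tnc stood at 1621, 1542, 1524 and 1669 CPM in NPC P15 and at 29.2, 19.6, 26.1 and 26.2 CPM in SPONT. That is a log2FC of −5.85 (SE 0.12, adjusted p = 4e-11), and every SPONT library stood below every NPC library. Tnr, which links lecticans, stood at 7.52, 5.6, 6.43 and 6.16 CPM in NPC P15 and at 85.6, 42.5, 42.9 and 41 CPM in SPONT. Its log2FC was 3.17 (SE 0.25, adjusted p = 7.6e-07), and the groups did not overlap although SPONT library 1 stood well above the other 3. Bcan rose from a mean of 853 to 1370 CPM (log2FC 0.81, SE 0.07), while Hapln4 fell from 57.7 to 15.3 CPM (−1.78, SE 0.10). Vcan fell from 403 to 222 CPM (−0.73, SE 0.14). With NPC P15 D3 as the reference the Vcan difference turned to 0.25 with an adjusted p of 0.0987. The other 4 called genes kept their direction and call with that reference. Ncan (753 CPM in SPONT), Cspg5 (461 CPM), Ptprz1 (530 CPM) and Acan (1.28 CPM) did not pass the test against NPC P15, and no value against D3 is given for them. The labels do not name the derivation of SPONT, so that a difference between derivations may be part of these values. Of 9 genes tested 2 rose and 3 fell, where 57.2% of all genes were called.

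Astrocyte markers moved over the same interval, from 56.6 to 72.9 CPM in NPC P15 to 6518 to 10191 CPM in SPONT (5 of 5 above 3 counts in every library of both groups). OPC (oligodendrocyte progenitor cell) markers went from 7449 to 7716 CPM to 5155 to 5601 CPM, and markers of dividing cells from 721 to 763 CPM to 103.95 to 148 CPM. The part of these cell types in the results was not tested. The lists of related genes are read against the 57.2% of all genes called. Of 21 chondroitin sulfate enzymes 3 rose and 9 fell, with Chst7 at −5.06 (SE 0.16) and Xylt1 at −2.98 (SE 0.25). Among the receptors that fell were integrin chains that can bind tenascin-C: Itga8 by 4.37 (SE 0.15), Itga9 by 2.85 (SE 0.09) and Itgav by 2.50 (SE 0.24) on the log2 scale. Cntn1, the contactin that binds tenascin-R and Ptprz1, rose by 3.24 (SE 0.14). Over the 15 receptors and ligands 3 rose and 6 fell. Of 9 proteases and inhibitors tested 3 rose and 4 fell, with Timp3 up by 5.01 (SE 0.16) and Mmp2 at −3.15 (SE 0.07). Of 9 hyaluronan genes 2 rose and 2 fell, among them the hyaluronidase Cemip2 (−2.63, SE 0.16). Of 9 other proteoglycans 1 rose and 4 fell.

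CNTF, a cytokine of the IL-6 family that drives astrocyte differentiation, lowered Bcan, Ncan and Cspg5. Bcan stood at 1228, 1363, 1500 and 1387 CPM in SPONT and at 702, 659, 654 and 671 CPM with CNTF (log2FC −1.01, SE 0.07, adjusted p = 2.8e-06). Cspg5 stood at 400, 438, 514 and 491 CPM in SPONT and at 279, 266, 270 and 267 CPM with CNTF (−0.75, SE 0.08, adjusted p = 4.8e-05). Ncan stood at 846, 562, 808 and 798 CPM in SPONT and at 481, 460, 426 and 491 CPM with CNTF (−0.68, SE 0.11, adjusted p = 0.0009). For all 3 genes every CNTF library stood below every SPONT library, and the call held when any library was left out. Acan (−1.74, SE 0.37), Vcan (−0.63, SE 0.13) and Ptprz1 (−0.87, SE 0.17) were also called lower. These 3 calls were fragile. That of Acan was lost without SPONT library 3 or CNTF library 1, 3 or 4 (adjusted p up to 0.0189), that of Vcan without CNTF library 1, 3 or 4 (up to 0.0154), and that of Ptprz1 without SPONT library 3 or 4 or CNTF library 1, 2 or 3 (up to 0.0147). Tnr stood at 29.4, 30.1, 25 and 32.7 CPM, with a log2FC of −0.84 and an adjusted p of 0.015, and passed the test when SPONT library 1 or 2 was left out (adjusted p down to 0.00188). The 6 called of 9 tested compare with 19.9% of all genes called, and 9.15% called lower. Proteases moved the other way: of 9 tested 7 rose, among them Adamts20 (2.55, SE 0.17), Adamts8 (1.56, SE 0.11) and Adamts15 (1.45, SE 0.13), and Adamts9 fell by 0.94 on the log2 scale (SE 0.11). Of 21 chondroitin sulfate enzymes 2 rose and 5 fell, and of 9 hyaluronan genes 4 rose. Of the 15 receptors and ligands 1 rose and 2 fell, and of 9 other proteoglycans 3 fell, with Spock2 at −1.93 (SE 0.17). OPC markers stood at 3145 to 3469 CPM with CNTF, below SPONT, and the sum of the astrocyte markers at 21758 to 22734 CPM, above SPONT. The members of the astrocyte list did not all move alike. In the mean FPKM given by the study Gfap and Aqp4 were higher with CNTF than in SPONT, and Slc1a2 and Gjb6 lower. Aldh1l1, also on the list, was not given there. The part of these cell types in these results was not tested.

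IGF-1, which favours the oligodendrocyte lineage, gave calls in 2 of the genes. Acan stood at 1.26, 1.93, 1.15 and 0.76 CPM in SPONT and at 4.08, 3.64, 3.76 and 3.53 CPM with IGF-1 (log2FC 1.61, SE 0.25, adjusted p = 0.0051). Ptprz1 had a log2FC of −0.87 (SE 0.17, adjusted p = 0.0084). Of all genes 6.55% were called. Both calls were lost on leaving out SPONT library 3 or 4 or any 1 of the IGF-1 libraries, and that of Ptprz1 also without SPONT library 1, with adjusted p up to 0.0255 for Acan and 0.0364 for Ptprz1. Mature oligodendrocyte markers stood at 240 to 1224 CPM in SPONT and 1906 to 2162 CPM with IGF-1, OPC markers at 5155 to 5601 and 3831 to 4723 CPM, and astrocyte markers at 6518 to 10191 and 13152 to 14832 CPM. Within the astrocyte sum, the mean FPKM of the study was again higher than in SPONT for Gfap and Aqp4 and lower for Slc1a2 and Gjb6. The part of these cell types in the results was not tested.

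Serum set Tnc against most of the other genes. The question was how increasing FBS alters differentiation, and each concentration was compared with the same 4 SPONT libraries, so that the comparisons are not independent. At 1% FBS Acan rose, at 3.92, 4.24, 3.98 and 3.61 CPM against 0.76 to 1.93 CPM in SPONT (log2FC 1.64, SE 0.25, adjusted p = 0.0015), the 1 member called, where 8.78% of all genes were. Tnc stood at 25.2, 22.6, 22 and 26.5 CPM at 1% FBS, within the SPONT range of 19.6 to 29.2 CPM. At 5% FBS it stood at 338, 181, 255 and 363 CPM (log2FC 3.50, SE 0.22, adjusted p = 1.3e-06). At 10% it stood at 837, 444, 849 and 886 CPM (4.91, SE 0.24) and at 20% at 990, 1045, 1020 and 819 CPM (5.22, SE 0.14, adjusted p = 2.2e-10). Each of these 3 groups stood apart from SPONT, and those at 10% and 20% overlapped each other.

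**Figure D3:**
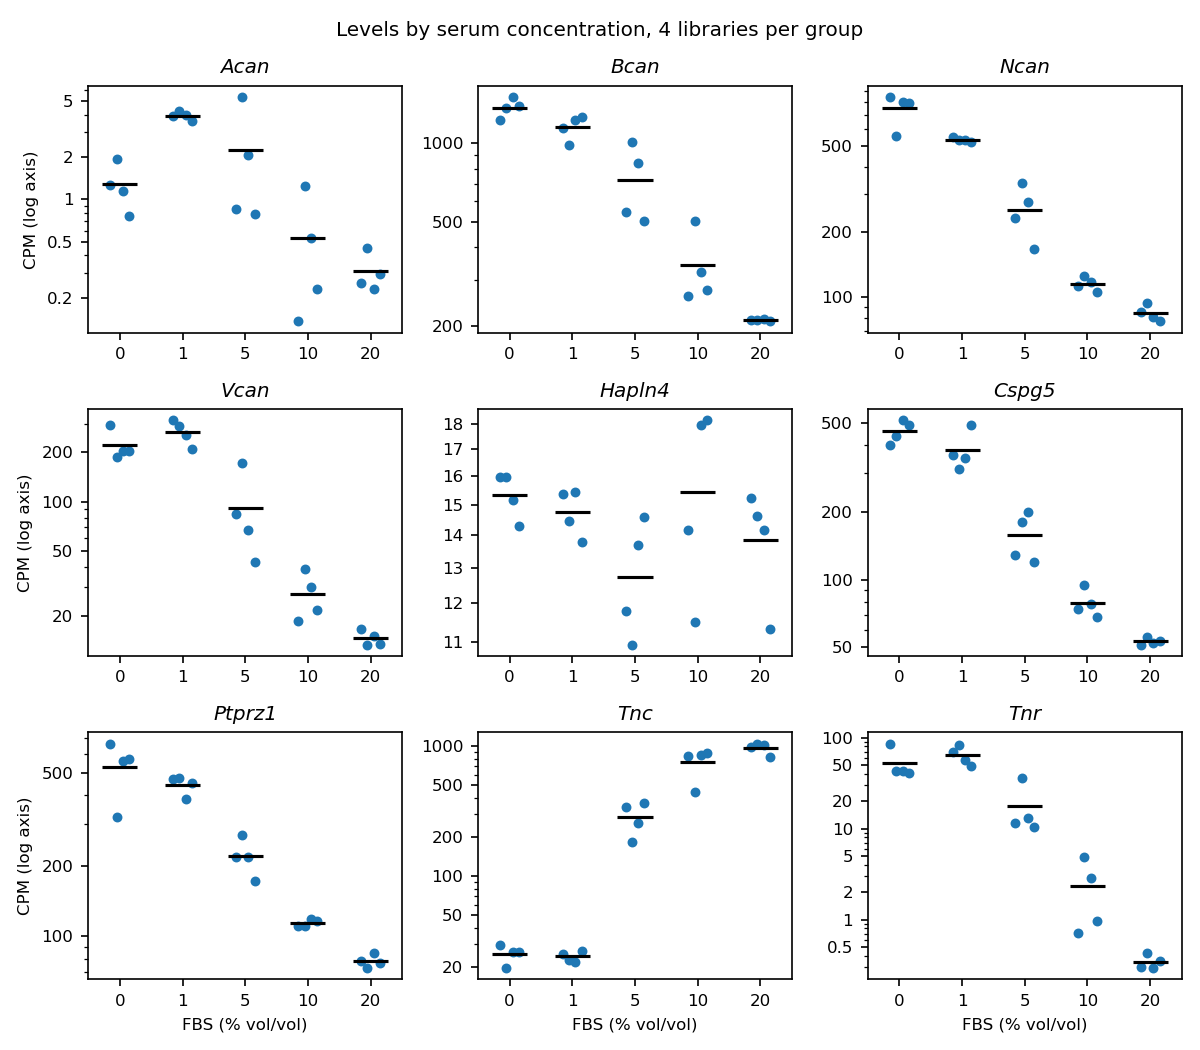
Level (CPM, log axis) of 9 genes against the FBS concentration (% vol/vol), with SPONT at 0%. Points are libraries, 4 per group, and bars are means. Tnc climbs from 25.3 to 969 CPM between SPONT and 20% FBS, Bcan, Ncan, Vcan, Cspg5, Ptprz1 and Tnr descend, and Hapln4 stays between 10.9 and 18.1 CPM in every library.

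The lecticans Bcan, Ncan and Vcan, and with them Cspg5, Ptprz1 and Tnr, went down as Tnc went up. Ncan stood at 846, 562, 808 and 798 CPM in SPONT, at 233, 340, 275 and 168.3 CPM at 5% FBS, at 113, 126, 117 and 106 CPM at 10%, and at 85.2, 94.4, 80.7 and 77.4 CPM at 20%. No 2 of these groups overlapped, and the log2FC against SPONT was −1.56 (SE 0.20), −2.69 (SE 0.13) and −3.20 (SE 0.13). Cspg5 fell by 1.54 (SE 0.16), 2.54 (SE 0.13) and 3.16 (SE 0.09), to 53.1 ± 1.76 CPM at 20% (SD, n = 4). Bcan stood at 211, 210, 212 and 208 CPM at 20% FBS (−2.75, SE 0.08, adjusted p = 2.8e-10). Tnr fell furthest, to 0.299, 0.435, 0.295 and 0.353 CPM at 20% (−7.29, SE 0.32, adjusted p = 8.3e-09), and every one of these libraries stood below every library at 10%. Vcan fell by 3.96 (SE 0.15) to 14.7 CPM and Ptprz1 by 2.79 (SE 0.18) to 78.4 CPM, both at 20%. Acan, at 0.256, 0.448, 0.233 and 0.297 CPM, also fell (−2.08, SE 0.35, adjusted p = 0.00034). Hapln4 stood at 15.2, 14.6, 14.1 and 11.3 CPM at 20% against 14.3 to 16 CPM in SPONT (−0.19, SE 0.11, adjusted p = 0.16). At 20% FBS 7 members fell and 1 rose of 9 tested, where 55.5% of all genes were called, 27.9% lower and 27.6% higher, and all 8 calls held when any library was left out. The median log2FC was −2.79 over the 9 and −0.03 over all genes.

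At 5% FBS the libraries were uneven, and library 2 stood nearest to SPONT. There Vcan stood at 83.9, 173, 66.9 and 42.5 CPM, with a log2FC of −1.27 (SE 0.36) and an adjusted p of 0.015, and without library 2 it was −1.79 with an adjusted p of 0.00018. Tnr stood at 11.6, 35.8, 13 and 10.3 CPM (−1.57, SE 0.41, adjusted p = 0.0096), a call lost without any 1 of the other 7 libraries (adjusted p up to 0.0314), and without 5% FBS library 2 the log2FC was −2.18 (adjusted p = 0.000125). Bcan stood at 547, 1014, 839 and 503 CPM (−0.91, SE 0.20, adjusted p = 0.0041), and that call was lost without SPONT library 3 or 4 or 5% FBS library 1 or 4 (adjusted p up to 0.0135). Ptprz1 (−1.26, SE 0.20) was called with any library left out. In all 5 genes fell and 1 rose at 5% FBS, where 34.1% of all genes were called, and 6 fell and 1 rose at 10%, where 45% were. Acan at 10% had a log2FC of −1.25 (SE 0.59, adjusted p = 0.093), which was −2.08 (adjusted p = 0.00567) without library 2.

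Genes that act on the same matrix also changed at 20% FBS, where 55.5% of all genes were called. Of 9 proteases and inhibitors 5 rose and 1 fell, with the aggrecanases Adamts5 (log2FC 4.78, SE 0.12), Adamts8 (4.64, SE 0.09) and Adamts1 (3.98, SE 0.16) up and Adamts9 at −1.27 (SE 0.11). Of 9 hyaluronan genes 4 rose and 4 fell: Cemip, which degrades hyaluronan, rose by 7.40 (SE 0.22), and Has2, which makes it, went from a mean of 3.36 CPM to 0.0287 CPM. Of 21 chondroitin sulfate enzymes 11 rose and 4 fell, with Dse (2.78, SE 0.09) and Chst14 (2.46, SE 0.11), which both serve dermatan sulfate, up and the 6-O-sulfotransferase Chst3 (−3.04, SE 0.11) down. Of 9 other proteoglycans 5 rose and 3 fell. Decorin (Dcn) rose by 7.22 (SE 0.39) and biglycan (Bgn) by 4.56 (SE 0.14), and Cspg4 fell by 2.72 (SE 0.07). Of 15 receptors and ligands 7 rose and 5 fell, with Itga8 up by 3.40 (SE 0.13) and Ptn at −2.95 (SE 0.20).

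Cell type markers moved along the same series. OPC markers stood at 5155 to 5601 CPM in SPONT, 1153 to 2781 CPM at 5% FBS and 497 to 555 CPM at 20%, with 6 of 6 above 3 counts in every library. Fibroblast and pericyte markers, a list that includes Dcn, stood at 7.65 to 9.91 CPM, 133 to 430 CPM and 418 to 529 CPM, and astrocyte markers at 6518 to 10191 CPM in SPONT and 3694 to 4302 CPM at 20%. Their part in the results was not tested.

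CNTF added to 5% FBS held Tnc down. Tnc stood at 338, 181, 255 and 363 CPM with 5% FBS alone and at 57.4, 77.5, 70.8 and 68.3 CPM with both agents, a log2FC of −2.13 (SE 0.20, adjusted p = 8e-05). The groups did not overlap. The difference between the CNTF effects with and without serum was itself called for Tnc (−1.79, SE 0.24, adjusted p = 3e-05) and for Ptprz1 (1.15, SE 0.23, adjusted p = 0.001), where 22.9% of all genes were called, and both held when any library was left out. Ptprz1 stood at 218, 270, 217 and 171.9 CPM with 5% FBS and at 282, 306, 271 and 270 CPM with both, with an adjusted p of 0.077 (log2FC 0.29, SE 0.12) that became 0.00401 without 5% FBS library 2 (log2FC 0.43). Hapln4 rose, from 11.8, 10.9, 13.7 and 14.6 CPM to 17.7, 18.7, 20.5 and 19.7 CPM (0.51, SE 0.09, adjusted p = 0.0023). Acan was called lower (−2.43, SE 0.59, adjusted p = 0.0095), a call lost without 5% FBS library 3 or any 1 of the CNTF+5% FBS libraries (adjusted p up to 0.0319). Of all genes 23.3% were called. Fibroblast and pericyte markers stood at 133 to 430 CPM with 5% FBS and at 19.2 to 25.2 CPM with both agents (4 of 5 above 3 counts in every library of the latter), and their part was not tested. Against CNTF alone, Tnc rose with the serum by 1.69 (SE 0.08), from 19.6 to 68.5 CPM. Ncan (−1.42, SE 0.05), Cspg5 (−1.01, SE 0.04), Vcan (−0.69, SE 0.05), Bcan (−0.47, SE 0.04) and Tnr (−0.39, SE 0.08) fell in that comparison, in which 72.8% of all genes were called.

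Tnc was lower in NPC passed through a pipette in DCH than in media, the alternative carrier, and lower again after 4 hours in DCH. Tnc stood at 426, 491, 443, 485 and 418 CPM in NPC media, at 281, 288, 295, 228 and 256 CPM in NPC DCH, and at 173, 197, 191.7, 220 and 204 CPM in NPC DCH 4h. The groups did not overlap in either comparison, and the log2FC was −0.74 (SE 0.06, adjusted p = 5.6e-08) for DCH against media and −0.45 (SE 0.07, adjusted p = 0.00064) for the 4-hour retention. For the retention it was the 1 member called, where 0.32% of all genes were called. Against NPC P15, NPC media differed by −1.81 in Tnc (SE 0.05), by 0.44 in Ncan (SE 0.04), by 0.71 in Cspg5 (SE 0.04) and by −0.34 in Ptprz1 (SE 0.06), where 26.2% of all genes were called. In DCH, Vcan (−0.45, SE 0.05) and Ncan (−0.27, SE 0.04) also fell against media, where 4.32% of all genes were called. Bcan (−0.16, SE 0.04) and Ptprz1 (0.22, SE 0.05) were called in DCH against media as well, but Bcan lost the call without media library 3 or 5 or DCH library 3 or 5 (adjusted p up to 0.0148), and Ptprz1 in 8 of 10 such fits, the exceptions being those without media library 2 and DCH library 4 (adjusted p up to 0.0298). In 1 fit over all 23 groups, which share a single estimate of the spread, Tnc had the same direction but an adjusted p of 0.0464 for DCH against media and 0.427 for the retention.

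Injury split the proteoglycans of host astrocytes. Bcan stood at 1521 to 2010 CPM with a median of 1789 CPM in the 9 healthy libraries and at 659, 559, 733, 818 and 784 CPM in the 5 libraries after SCI. Its log2FC was −1.49 (SE 0.10, adjusted p = 3e-09), and the groups did not overlap. Vcan stood at 14.5 to 33.6 CPM with a median of 27.3 CPM in healthy cord and at 85.4, 85.9, 84.7, 75 and 62.5 CPM after SCI (1.43, SE 0.15, adjusted p = 4.9e-07). Tnc stood at 27.7 to 38.7 CPM with a median of 29.6 CPM and at 61.1, 73.4, 65.8, 84.2 and 71.4 CPM (0.99, SE 0.10, adjusted p = 4.4e-07). Every SCI library stood above every healthy library for both genes. Ncan, at 242 to 302 CPM in healthy cord and 139 to 198 CPM after SCI, fell by 0.91 on the log2 scale (SE 0.10, adjusted p = 9.7e-07).

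Ptprz1 stood at 238 to 414 CPM in healthy cord and at 137, 104.6, 162, 226 and 72.8 CPM after SCI (−1.38, SE 0.21, adjusted p = 2.3e-05). Acan rose from 1.89 to 3.41 CPM to 4.21, 8.54, 4.07, 5.81 and 10.2 CPM (1.11, SE 0.23, adjusted p = 0.00064). Neither overlapped between the groups. Both link proteins fell: Hapln4 by 1.31 (SE 0.20), from 5.81 to 9.7 CPM to 2.29 to 5.43 CPM, and Hapln1 by 1.83 (SE 0.37), where 1 library after SCI, at 1.49 CPM, reached the lowest healthy one at 1.48 CPM. Tnr (0.79, SE 0.22, adjusted p = 0.0052) was called higher, but lost the call without healthy library 1, 2 or 3 or SCI library 1, 2 or 3 (adjusted p up to 0.0258). Cspg5 stood at 189 to 308 CPM in healthy cord and 281 to 307 CPM after SCI and did not pass the test. In all 4 genes rose and 5 fell of 10 tested, where 41.1% of all genes were called and 22.2% called higher. In 1 fit over all 23 groups the calls of Acan (adjusted p = 0.0448), Tnr (0.0473) and Hapln1 (0.232) were lost.

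The lists of related genes are read against the same background. Of 11 hyaluronan genes 7 rose and 1 fell (median log2FC 0.93), with Hapln2, the link protein of nodes of Ranvier, up by 2.03 (SE 0.17) and Cemip by 2.31 (SE 0.39). Of 10 proteases and inhibitors 6 rose and 2 fell (median 0.84, against 0.02 over all genes). Mmp2 rose by 3.48 (SE 0.14), Adamts15 by 2.12 (SE 0.21) and the aggrecanase Adamts4 by 1.90 (SE 0.18), and the inhibitor Timp3 fell by 0.95 on the log2 scale (SE 0.10). Of 12 other proteoglycans and tenascins 9 rose and 1 fell, with perlecan (Hspg2) up by 2.66 (SE 0.17) and Spock2 at −1.59 (SE 0.26). Of 21 chondroitin sulfate enzymes 6 rose and 5 fell, with Dse (2.65, SE 0.30) and Chst3 (1.30, SE 0.15) up and Csgalnact1 (−1.05, SE 0.14) down. Of 15 receptors and ligands 6 rose, among them Itgb3 (2.64, SE 0.25), and 3 fell, among them Cntn1 (−1.28, SE 0.21). The make-up of the host libraries changed as well: mature oligodendrocyte markers stood at 5192 to 11264 CPM in healthy cord and 21452 to 36410 CPM after SCI, OPC markers at 1039 to 1612 and 1403 to 2337 CPM, fibroblast and pericyte markers at 137 to 219 and 470 to 990 CPM, and microglia and macrophage markers at 8.62 to 16.8 and 77.9 to 354 CPM. Every marker of these lists was above 3 counts in every library, apart from 1 of 6 microglial markers in healthy cord. Neuronal markers stood at 220 to 308 CPM in healthy cord and at 33.5, 20.4, 75.4, 256 and 76.9 CPM after SCI. Schwann cell markers stood at 821 to 1789 CPM in healthy cord and 2125 to 5022 CPM after SCI. The part of these cells in the results was not tested.

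Grafts at 14 days stood higher in Acan and Tnr and lower in Ncan, Tnc and Ptprz1 relative to NPC passed through a pipette in DCH. Each graft group was compared with the same 5 NPC DCH libraries. Acan stood at 0.967, 1.53, 2.42, 0.309 and 0.0638 CPM in NPC DCH. In the grafts at 14 days it stood at 78.6, 44.3, 82.8, 43.1 and 22.5 CPM in uninjured cord, at 35.6, 48.3, 30.8, 9.08 and 30.4 CPM in SCI and at 3.86, 17.6, 11.5, 6.43 and 12.5 CPM in dSCI. Every graft stood above every NPC DCH library, with a log2FC of 5.67 (SE 0.77), 5.17 (SE 0.77) and 3.63 (SE 0.85). Tnr stood at 3.49 to 7.47 CPM in NPC DCH and at 20.8 to 103.8 CPM in uninjured cord, 34.3 to 130 CPM in SCI and 12.8 to 104.4 CPM in dSCI. Its log2FC was 3.73 (SE 0.39), 4.17 (SE 0.38) and 3.31 (SE 0.69), with no overlap.

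Ncan stood at 961 to 1092 CPM in NPC DCH. In the grafts it stood at 146, 140, 177, 136 and 92.6 CPM in uninjured cord (−2.88, SE 0.14), at 177, 185, 187.15, 191.8 and 141 CPM in SCI (−2.21, SE 0.10) and at 121, 126.9, 143, 70.5 and 143 CPM in dSCI (−2.74, SE 0.25). No graft came near an NPC library. Tnc fell by 2.74 (SE 0.21), 2.23 (SE 0.29) and 1.40 (SE 0.18) on the log2 scale, from a mean of 270 CPM to 39.7, 44.2 and 84.7 CPM. Ptprz1 fell by 1.15 (SE 0.22), 1.49 (SE 0.18) and 2.14 (SE 0.37), from 586 CPM to 260, 166 and 100.9 CPM. Bcan, Vcan, Hapln1, Hapln4 and Cspg5 did not pass the test in the grafts into uninjured cord, where 2 genes rose and 3 fell and 53.7% of all genes were called. In SCI 2 rose and 5 fell with 51.6% called. The 2 further calls there were Vcan (−0.48, SE 0.13, lost without DCH library 1, 2, 3 or 5 or graft library 3, adjusted p up to 0.0171) and Hapln4 (−0.90, SE 0.22, lost without DCH library 2, adjusted p = 0.0108).

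In dSCI 2 genes rose and 7 fell, with 51.9% of all genes called. Bcan fell there by 0.97 (SE 0.20) and Cspg5 by 1.497 (SE 0.26) on the log2 scale. Vcan (−1.45, SE 0.35) lost its call without dSCI library 3 (adjusted p = 0.0104), and Hapln4 (−0.78, SE 0.23) lost it without any 1 library other than dSCI library 5 (adjusted p up to 0.0312). Without library scaling the median of all genes moved by −0.33 for grafts in SCI and by −0.27 in dSCI. The related matrix genes in SCI grafts are read against the 51.6% of all genes called. Against NPC DCH, 8 of 10 proteases and inhibitors rose and 1 fell in these grafts, with Adamts5 up by 3.08 (SE 0.58). Of 21 chondroitin sulfate enzymes 6 rose and 6 fell (Chst15 3.79, SE 0.63, and Chst7 −4.87, SE 0.23). Of 15 receptors and ligands 5 rose and 6 fell (the Nogo receptor relative Rtn4rl2 4.90, SE 0.59, and Itga8 −5.45, SE 0.39). Of 10 hyaluronan genes 4 rose and 3 fell, and of 12 other proteoglycans and tenascins 10 rose and 1 fell, with Dcn at 6.37 (SE 0.34).

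**Figure D4:**
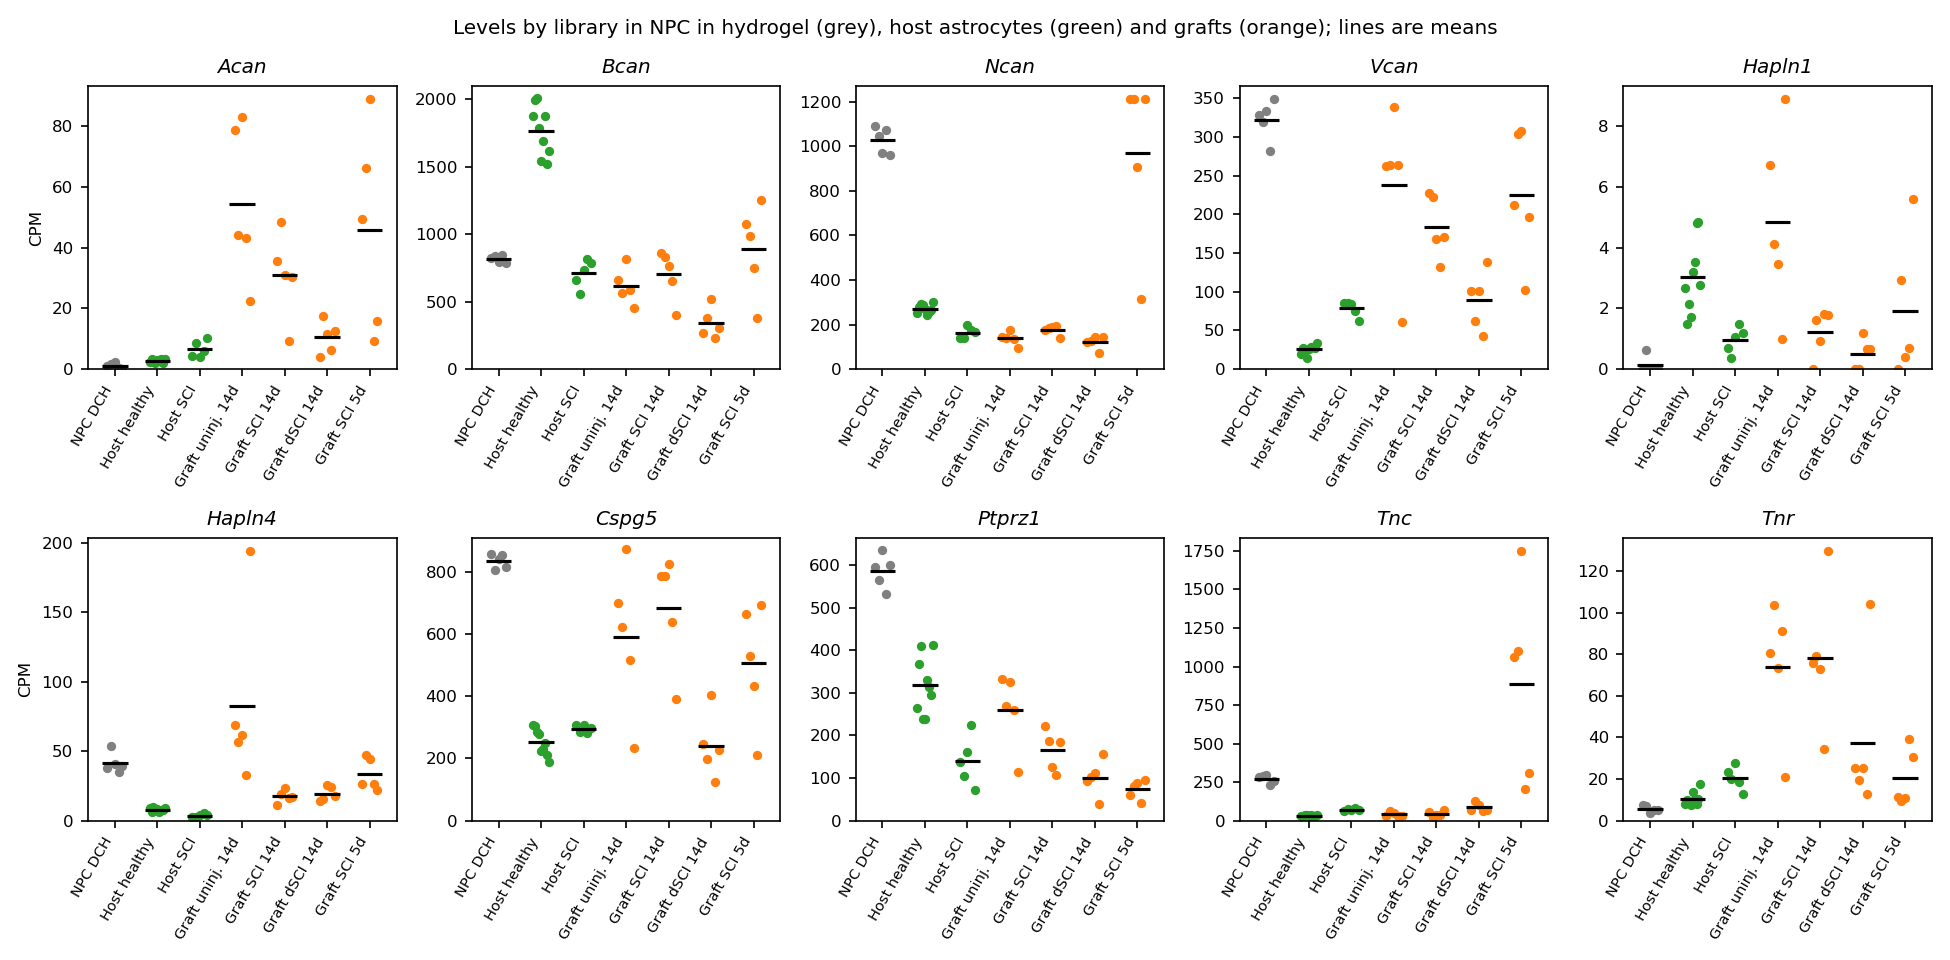
Level (CPM, linear axis) of the 10 genes in NPC DCH, in the 4 graft groups and in both groups of host astrocytes. Points are libraries and bars are means. Acan stands at 22.5 to 82.8 CPM in the grafts into uninjured cord and at 1.89 to 3.41 CPM in healthy host astrocytes, and Ncan falls from 961 to 1092 CPM in NPC DCH to 92.6 to 177 CPM in the grafts into uninjured cord.

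The grafts held RNA of several lineages, and whether some of it came from untagged host cells was not tested. Over the same list of markers NPC DCH held 74 to 87 CPM for astrocytes, 9.64 to 18.7 CPM for mature oligodendrocytes, 1.35 to 5.52 CPM for neurons, 0.0638 to 0.222 CPM for microglia and macrophages, and 8.42 to 11 CPM for fibroblasts and pericytes. The grafts in uninjured cord held 10119 to 16592, 10917 to 25701, 1186 to 5840, 106.9 to 572 and 952 to 3012 CPM for these lists. Those in SCI held 9563 to 20313, 3822 to 9601, 171.9 to 440, 140 to 546 and 642 to 2563 CPM, and those in dSCI 5728 to 11824, 3460 to 11709, 208 to 1074, 372 to 1624 and 4176 to 19320 CPM. All 5 astrocyte, 5 mature oligodendrocyte, 6 neuronal, 6 microglial and 5 fibroblast markers were above 3 counts in every graft at 14 days, whereas in NPC DCH 3 of 6 neuronal and 1 of 6 microglial markers were. OPC markers stood at 4579 to 4989 CPM in NPC DCH, 1594 to 5132 CPM in uninjured cord, 1633 to 4022 CPM in SCI and 750 to 1485 CPM in dSCI. The part of these cells in the results was not tested.

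Between 5 and 14 days in SCI the level of Ncan and Tnc in the grafts fell. Ncan stood at 1214, 1214, 907, 313 and 1213 CPM at 5 days and at 177, 185, 187.15, 191.8 and 141 CPM at 14 days, a log2FC of −2.28 (SE 0.31, adjusted p = 0.00084). Tnc stood at 1062, 1102, 1751, 206 and 309 CPM at 5 days and at 54.1, 22.2, 38.4, 36.3 and 70.1 CPM at 14 days (−4.09, SE 0.58, adjusted p = 0.001). For both genes every library at 5 days stood above every library at 14 days, and both calls held when any library was left out. Ptprz1 moved the other way, from 59.7, 82.3, 87.8, 42 and 96 CPM to 223, 187.9, 126.7, 108 and 184.2 CPM (1.36, SE 0.25, adjusted p = 0.0038), with no overlap. That call was lost without 14-day library 1 or 2 or 5-day library 1 or 2 (adjusted p up to 0.0125), and without library scaling (adjusted p = 0.0103). Of all genes 5.3% were called. The 5-day libraries were the shallow ones, so that time and depth cannot be told apart. Fibroblast and pericyte markers stood at 4076 to 12378 CPM at 5 days and 642 to 2563 CPM at 14 days, and library 4 at 5 days, low in Ncan and Tnc, had the lowest neural progenitor sum (558 CPM) and the highest microglial sum (1857 CPM), the part of which was not tested. Of 10 proteases and inhibitors 4 fell from 5 to 14 days, with Mmp9 at −5.25 (SE 0.67) and Adamts8 at −3.24 (SE 0.59). Of 21 chondroitin sulfate enzymes 1 rose and 5 fell, and of 12 other proteoglycans and tenascins 1 rose and 2 fell, with Cspg4 at 1.56 (SE 0.25) and lumican (Lum) at −2.43 (SE 0.37).

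Against NPC DCH, the 5-day grafts stood higher in Acan (5.49, SE 0.89) and Tnr (1.96, SE 0.45) and lower in Ptprz1 (−2.92, SE 0.18), where 53.9% of all genes were called. Tnc was called higher (1.78, SE 0.46, adjusted p = 0.0048), with overlapping groups, since libraries 4 and 5 stood at 206 and 309 CPM against 228 to 295 CPM in NPC DCH. The call was lost without any 1 of the NPC DCH libraries or graft library 1, 2 or 3 (adjusted p up to 0.0138). With NPC media as the reference it was 1.04 with an adjusted p of 0.061. Against NPC P15 D2, whose depth was alike and which was chosen as a reference after the data were seen, it turned to −1.08 with an adjusted p of 0.034.

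Between host tissues, Hapln4, Tnc and Cspg5 were each called in 1 comparison of the grafts at 14 days. Hapln4 stood at 68.7, 56.7, 61.6, 32.6 and 194.3 CPM in uninjured cord and at 11.1, 19.1, 23.8, 16 and 17.1 CPM in SCI, a log2FC of −1.99 (SE 0.42, adjusted p = 0.0079) without overlap. It was the 1 member called, where 4.64% of all genes were, and the call was lost without uninjured library 1 or 2 or SCI library 1, 2, 3 or 4 (adjusted p up to 0.0241). Neuronal markers stood at 1186 to 5840 CPM in uninjured cord and 171.9 to 440 CPM in SCI, and uninjured library 5 was highest in both Hapln4 and that sum, at 194.3 and 5840 CPM, the part of which was not tested. In dSCI against uninjured cord Tnc was called higher, at 70.5, 125, 102.1, 60.7 and 65.3 CPM against 29.9, 58.8, 49.4, 31.2 and 29.2 CPM (1.33, SE 0.25, adjusted p = 0.0054), where 4.19% of all genes were called. The groups did not overlap, but the call was lost without uninjured library 1, 4 or 5 or dSCI library 2 or 3 (adjusted p up to 0.0179). Acan (−2.06, SE 0.44, adjusted p = 0.01) did not pass the test but did without uninjured library 5 or dSCI library 5 (adjusted p down to 0.00628), and without library scaling (adjusted p = 0.00238). Hapln4 had a log2FC of −1.87 (SE 0.44, adjusted p = 0.016). Against SCI grafts, those in dSCI stood lower in Cspg5, at 246, 199, 403, 124 and 226 CPM against 785, 786, 826, 637 and 389 CPM (−1.53, SE 0.28, adjusted p = 0.0077), where 1.83% of all genes were called. The groups overlapped by 1 library each, and the call was lost without SCI library 1, 2, 3 or 4 or dSCI library 1, 2 or 4 (adjusted p up to 0.0287). Fibroblast and pericyte markers stood at 4176 to 19320 CPM in dSCI, above the other grafts at 14 days, and their part in these results was not tested. Other fits called more of the genes. For SCI against uninjured, dSCI against uninjured and dSCI against SCI, DESeq2 called 2, 3 and 3 members and the fit over all 23 groups 2, 7 and 5. The shares of all genes called in those fits are not given here, so that these counts are not a result about the members.

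Set beside host astrocytes, in SCI and in uninjured cord, the grafts held more Acan, Vcan, Hapln4 and Tnr. Whether the 14 days of the grafts count from grafting or from injury is not settled by the labels, so that time after injury may differ from that of the host. In SCI, Vcan stood at 228, 222, 169, 132 and 170 CPM in grafts and at 85.4, 85.9, 84.7, 75 and 62.5 CPM in host astrocytes (log2FC 1.17, SE 0.15, adjusted p = 0.00013). Hapln4 stood at 11.1 to 23.8 CPM against 2.29 to 5.43 CPM (2.24, SE 0.30) and Cspg5 at 389 to 826 CPM against 281 to 307 CPM (1.14, SE 0.16). Tnr stood at 75.6, 79.4, 73.1, 34.3 and 130 CPM against 23.4, 20.1, 27.9, 18.4 and 12.6 CPM (1.94, SE 0.33). None of these 4 overlapped. Acan was higher as well (2.15, SE 0.40), with 1 graft library, at 9.08 CPM, inside the host range. In all 5 of 10 genes were higher, where 14.6% of all genes were called and 6.79% called higher, and all 5 calls held when any library was left out. Bcan stood at 402 to 859 CPM in grafts and 559 to 818 CPM in host astrocytes, and Ncan at 141 to 191.8 and 139 to 198 CPM, and neither passed the test. In SCI, astrocyte markers stood at 9563 to 20313 CPM in grafts and 23548 to 38769 CPM in host libraries, mature oligodendrocyte markers at 3822 to 9601 and 21452 to 36410 CPM, OPC markers at 1633 to 4022 and 1403 to 2337 CPM, and Schwann cell markers at 40.7 to 160 and 2125 to 5022 CPM. Their part in the results was not tested. In the absence of injury Acan (3.75, SE 0.24), Vcan (2.64, SE 0.26), Hapln4 (2.88, SE 0.30) and Tnr (2.27, SE 0.28) were again higher in grafts, and Bcan (−2.08, SE 0.11) and Ncan (−1.54, SE 0.12) lower, with no overlap. Cspg5 (0.65, SE 0.19) lost its call in 8 of 14 fits without 1 library, those without graft library 1, 2 or 3 or healthy library 5, 6, 7, 8 or 9 (adjusted p up to 0.0325). Ptprz1 (−0.86, SE 0.20) was called, but not without library scaling (−0.29, adjusted p = 0.221), which moved the median of all genes by 0.55 in this comparison. Of all genes 49.7% were called. Fibroblast, microglial and neuronal markers stood higher in these grafts (at least 952, 106.9 and 1186 CPM) than in healthy host libraries (at most 219, 16.8 and 308 CPM). Astrocyte markers stood lower, at 10119 to 16592 CPM against 30759 to 38144 CPM, OPC markers stood at 1594 to 5132 CPM against 1039 to 1612 CPM and mature oligodendrocyte markers at 10917 to 25701 CPM against 5192 to 11264 CPM. The part of these cells was not tested.

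In culture, SPONT held more Ncan (1.13, SE 0.09), Vcan (2.77, SE 0.17) and Tnr (2.00, SE 0.23) and less Bcan (−0.71, SE 0.08) than healthy host astrocytes, each without overlap and where 67.0% of all genes were called. With 1 library left out, Acan (−1.72 to −1.23) and Tnc (−0.74 to −0.58) were also called lower, and Hapln4 (0.57 to 0.67) and Cspg5 (0.47 to 0.60) higher. Tnc lost its call without library scaling (adjusted p = 0.0236) and Acan in 1 edgeR fit over all 23 groups (adjusted p = 0.0199). Hapln1 was at or under 3 counts in the SPONT libraries and stood at 1.48 to 4.84 CPM in healthy host astrocytes, so that no fold is given. By the sums given above, astrocyte and mature oligodendrocyte markers stood lower and OPC markers higher in SPONT than in healthy host libraries. The part of these cell types was not tested.

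**Figure D5:**
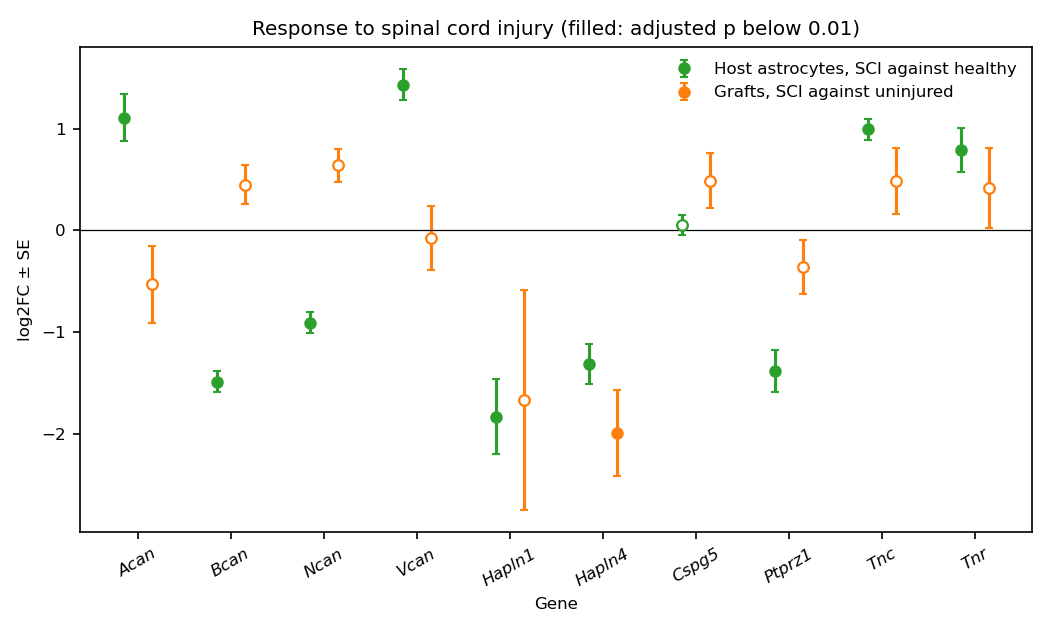
Difference of the 10 genes between SCI and cord without injury, as log2FC with SE, in host astrocytes (SCI against healthy) and in grafts (SCI against uninjured). Filled points were called at an adjusted p under 0.01. Bcan, at −1.49 in host astrocytes and 0.45 in grafts, lies on opposite sides of 0, and Hapln4 is the 1 filled point among the grafts, at −1.99.

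The difference between SCI and cord without injury was not the same in grafts and in host astrocytes for 4 genes. The difference of the log2FC, graft minus host, was 1.90 for Bcan (SE 0.20, adjusted p = 6.6e-08) and 1.51 for Ncan (SE 0.17, adjusted p = 3.3e-07). Bcan stood at 859, 828.8, 766, 655 and 402 CPM in SCI grafts and 663, 567, 815, 588 and 453 CPM in uninjured ones (0.45, SE 0.19, adjusted p = 0.14), which overlap, whereas it fell in host astrocytes. Ncan likewise had 0.64 in grafts (SE 0.16, adjusted p = 0.02). For Vcan the difference was −1.54 (SE 0.35, adjusted p = 0.0015), with −0.08 in grafts (SE 0.31, adjusted p = 0.91) and a rise in the host. These 3 calls held when any library was left out. For Acan it was −1.68 (SE 0.46, adjusted p = 0.0071), which was lost in 9 of 24 fits without 1 library: uninjured graft 1 or 3, SCI graft 1 or 3, healthy host 1, 4 or 8 and SCI host 2 or 5 (adjusted p up to 0.0199). Of all genes 16.8% were called. Host astrocytes and grafts differ in Cre driver, cell source and animals. Host cells were present at the injury, whereas NPC were placed 2 days after it, so that the graft values compare sites of grafting. Mature oligodendrocyte markers stood at 5192 to 11264 CPM in healthy host libraries and 21452 to 36410 CPM after SCI. In grafts they stood at 10917 to 25701 CPM in uninjured cord and 3822 to 9601 CPM in SCI. These factors cannot be told apart in this difference.

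Over the means of the 23 groups, on a log2(CPM + 1) scale, the genes varied together in part. These correlations are descriptions over groups that share library methods and, but for the host astrocytes, 1 cell line. Vcan and Cspg5 had the highest Pearson r (0.90), and Ncan had 0.88 with Vcan and 0.86 with Ptprz1. Tnc and Tnr had −0.32, and Acan and Ptprz1 −0.41, the lowest of all pairs. Each lectican gene has a link protein gene as its neighbour with no protein-coding gene between. Acan and Hapln3, 1.9 kb apart, had an r of 0.66, Ncan and Hapln4, 2.2 kb apart, 0.56, Bcan and Hapln2, 18.4 kb apart, 0.11, and Vcan and Hapln1, 43.5 kb apart, −0.05. Among 13133 genes that reached 10 CPM in some group, the pattern most like Tnc was that of Ccnd2 (0.92), then Antxr2 and Syde1 (0.91 each). For Tnr it was Trim67 (0.93), Plxnb3 (0.92) and Lhfpl3 (0.89), for Ptprz1 Map2 (0.96), Tnik (0.96) and Nlgn3 (0.94), and for Bcan Ank2, Fndc4 and Fjx1 (0.95 each). For Ncan it was Fam181b (0.94), Mageh1 (0.93) and Garem2 (0.92), and for Vcan Ptpro (0.94), Pdzrn4 (0.93) and Elfn1 (0.91). For Cspg5 it was Fyn (0.95), Brinp2 (0.94) and Nap1l5 (0.93), for Acan Slc16a6 (0.92), Fgd2 (0.88) and Stac2 (0.88), and for Hapln1 Rit2 (0.92), Kcnj9 (0.92) and Caln1 (0.91). Among the genes most like Hapln4 were Senp5 (0.91) and Tnrc6a (0.90).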

How the data were processed

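The deposited files hold raw read counts per gene, 1 table per library. Per the labels and the study's methods the authors ran paired-end sequencing of poly-A RNA from anti-haemagglutinin pull-downs, trimmed reads with Trimmomatic, aligned them to mm10 with HISAT2 and made the counts with featureCounts on Galaxy. The table headers of 11 libraries (NPC P15 D2 and the grafts at 5 days) name a single input to the alignment and those of the others name a pair. The study's reporting summary gives Galaxy versions of these tools, which are not repeated here. Counting was by default unstranded, so that reads of a gene and of an overlapping antisense gene cannot be told apart. RefSeq named 25275 of the 27179 genes. CPM and FPKM were computed here from the counts and the union of exons.

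Each comparison was fitted with the quasi-likelihood test of edgeR 4.0.16 (R 4.3.3) on its own groups, with TMM scaling, a minimum count of 10 (filterByExpr) and Benjamini-Hochberg adjustment over all genes tested. A gene was called at an adjusted p under 0.01. SE is the absolute log2FC over the root of F. No fold is given against a group with 3 or fewer counts per library. Values per library are CPM without TMM scaling, and error bars are SD. Libraries held 12286240 to 147764968 counts, and the SD and SE cover the spread between libraries.

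The 10 genes, the pathway and marker lists and the rules for named genes were chosen with earlier results of these data known. Named were the members, and, in each pathway list, up to 3 called genes per direction with the greatest change. Most like genes were ranked by Pearson r of log2(CPM + 1) over condition means, and a gene among those most like Hapln4 is not reported here. Names of a few pathway genes were left out where the reference group had few counts.

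Alternatives were DESeq2 1.42.0, its size factors, no scaling, no low-count filter, a replicate block, all groups in 1 fit, other references and each library left out. The pipeline was tested on simulated counts with 200 genes changed by 2 on the log2 scale. It recovered 189 of them for CNTF against SPONT and 120 for SCI against uninjured grafts, with 2 and 0 false calls. A gene not called between graft groups may therefore still differ.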

Additional observations from a re-analysis of the deposited data

Results flagged for a closer look

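Within groups of 4 to 10 libraries, 15 of 227 gene and group pairs had 1 library far from the others by Dixon's criterion, where chance alone gives about 1 in 20, or 11.3. In SPONT, library 2 was low in Ncan (562 CPM, median 803 CPM), and library 1 was high in Vcan (293 CPM, median 204 CPM) and in Tnr (85.6 CPM, median 42.7 CPM). In serum, library 2 at 10% FBS was low in Tnc (444 CPM, median 843 CPM) and library 2 at 5% FBS was high in Tnr (35.8 CPM, median 12.3 CPM).

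In grafts into uninjured cord, library 5 was low in Vcan (60.8 CPM, median 264 CPM) and high in Hapln4 (194.3 CPM, median 61.6 CPM). Library 5 of the grafts in SCI at 14 days was low in Ncan (141 CPM, median 185 CPM), and library 5 in dSCI was high in Tnr (104.4 CPM, median 25.2 CPM). In NPC P15 D3, library 3 was low in Vcan (170.9 CPM, median 203 CPM). In ESC, library 4 was high in Hapln4 (14.0 CPM, median 9.80 CPM). In NPC DCH 4h, library 1 was low in Cspg5 (832 CPM, median 869 CPM) and library 4 was high in Tnr (9.09 CPM, median 4.16 CPM). Hapln1, at 0 in most of these libraries, reached 0.633 CPM in NPC DCH library 2 and 0.291 CPM in NPC DCH 4h library 2.

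In 6 cases an effect differed between settings by the test of the difference itself. The CNTF effect with 5% FBS minus that without was 1.15 for Ptprz1 and −1.79 for Tnc on the log2 scale. The log2FC of SCI against uninjured grafts minus that of SCI against healthy host astrocytes was 1.90 for Bcan, 1.51 for Ncan, −1.54 for Vcan and −1.68 for Acan.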

How the results depend on the processing

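Of 153 called values 52 lost the call under at least 1 alternative, 2 changed sign, and 0 changed sign with a call by edgeR. The sign changed for Vcan in SPONT against NPC P15 D3 (0.25, adjusted p = 0.0987) and for Tnc in grafts at 5 days against NPC P15 D2 (−1.08, adjusted p = 0.034, a reference chosen after seeing the data). Vcan in grafts in SCI against uninjured cord, not called, was 0.044 with the replicate block and −0.32 to 0.052 with 1 library left out.

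With all 23 groups in 1 edgeR fit the members called went from 7 to 4 for P30 against P5, 5 to 3 for D2, 6 to 3 for CNTF, 2 to 0 for IGF-1, 1 to 0 for 1% FBS, 3 to 1 for CNTF+5% FBS against 5% FBS, 7 to 3 for CNTF+5% FBS against CNTF, 5 to 2 for media against P15, 5 to 0 for DCH against media and 1 to 0 for DCH 4h. Between grafts they went from 1 to 2 (SCI against uninjured), 1 to 7 (dSCI against uninjured), 1 to 5 (dSCI against SCI) and 3 to 6 (14 against 5 days). The cause was not tested. The shares of all genes called in that fit and in the other alternatives of this paragraph are not given here. These counts are therefore not a result about the members. DESeq2 called 2 members for 1% FBS, 2 for SCI against uninjured grafts, 3 for dSCI against uninjured and 3 for dSCI against SCI. For dSCI against uninjured 2 were called without scaling and 2 without the low-count filter. Leaving out 1 library gave 3 to 8 members for CNTF, 0 to 3 for IGF-1, 1 to 3 for 1% FBS, 2 to 5 for CNTF+5% FBS against 5% FBS, 3 to 5 for DCH against media, 0 to 1 for SCI against uninjured grafts, 0 to 2 for dSCI against uninjured, 0 to 3 for dSCI against SCI and 2 to 6 for the CNTF by FBS difference.

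The replicate numbers shared by groups were not used as pairs, since in no comparison was the correlation of every same-numbered pair above 0.1. This rule cannot exclude pairing or shared batches in some comparisons. The mean correlation was highest for 10% FBS against SPONT, at 0.176 with single pairs up to 0.385. It was lowest for CNTF against SPONT, at −0.060. With the replicate block in edgeR the members called were 0 for IGF-1, 3 for DCH against media, 2 for 5-day grafts against DCH, 0 for dSCI against uninjured grafts and 0 for dSCI against SCI grafts. The block also took the calls of Tnc for 14 against 5 days (−3.88, adjusted p = 0.01003), Hapln1 (0.0102) and Tnr (0.0177) for host SCI, Acan for D3 (0.0207) and for the graft minus host difference (0.0141), Hapln4 for dSCI grafts against DCH (0.0227), and Bcan for media against P15 (0.0437). Against healthy host astrocytes it took those of Cspg5 in uninjured grafts (0.155) and of Hapln4 (0.0141) and Cspg5 (0.0273) in SPONT. Over all genes the block moved the calls from 979 to 1 for IGF-1, 1312 to 833 for 1% FBS, 599 to 393 for DCH against media, 666 to 35 for dSCI against uninjured, 289 to 0 for dSCI against SCI, 811 to 269 for 14 against 5 days, 6933 to 4251 for host SCI, 2425 to 1177 for grafts against host in SCI, 8209 to 5093 without injury, and 2947 to 1719 for the difference between graft and host.

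Dropping the scaling moved the median log2FC of all genes by 0.55 for uninjured grafts against healthy host astrocytes, 0.34 for SPONT against them, −0.42 for the difference between graft and host, −0.28 for SCI and −0.23 for dSCI against uninjured grafts and 0.18 for host SCI, with no reversed direction among the values reported. The grafts at 5 days and NPC P15 D2 had the lowest depth.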
